A study of Homo sapiens with 10 samples.

Results

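The enzymes that make the building blocks of DNA and the proteins that copy it were followed in NK-92 cells given agents that act on the cell's iron supply. The set holds 58 genes, picked by symbol for their known function, out of 54628 symbols in the count table. It covers ribonucleotide reductase, thymidylate, pyrimidine, purine and folate enzymes, enzymes that clear nucleotides, origin licensing factors, the MCM helicase, the sliding clamp and its loader, primase, the replicative polymerases, and flap, ligase and single-strand binding proteins. All 58 were present in the table and all 58 passed the filter on low counts, so none was left out.

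NK-92 is an established human line derived from a lymphoma of natural killer cells, and polyadenylated RNA was measured in 10 libraries, 2 in each of 5 groups. The groups were cells 6 h or 24 h after DFO (deferoxamine, 500 µM), an iron chelator, cells 6 h or 24 h after T003 (PPMX-T003, 10 µg/mL), which is an antibody to transferrin receptor 1, the port of entry for iron on transferrin, and cells taken untreated at 0 h. All groups shared the line and a medium with human serum. Untreated cells were sampled at 0 h alone, so in every comparison with them the agent and the time in culture cannot be told apart. No label says that the libraries of a group came from separate cultures, so the p-values reflect the spread of these libraries and may be technical in part or whole.

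Cells make deoxynucleotides by reducing ribonucleotides, a step carried out by ribonucleotide reductase, whose small subunit RRM2 carries the iron and the radical that the reaction needs. Purine synthesis begins with PPAT, which holds an iron-sulfur cluster, and the large subunits of several replicative polymerases, the primase subunit PRIM2 and the nuclease DNA2 hold one as well. Before S phase, the origin recognition complex, CDC6 and CDT1 load the MCM helicase onto DNA. CDC45 and the GINS complex then activate it, and polymerases held on DNA by the PCNA ring copy both strands. Iron chelators such as DFO are known to inactivate ribonucleotide reductase and to stall cells in G1 or S phase. Transcription of many of these genes follows E2F factors and peaks at the border of G1 and S phase. In bulk RNA, fewer cells in a phase and less RNA per cell cannot be told apart.

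The start regions of 3 genes on which the results turn are shown here. They are the gene with the largest rise (PPAT), one that fell with DFO (ORC1) and one that fell with T003 (PCNA). All are RefSeq sequences of GRCh38.p14, placed by the transcript start in the RefSeq promoter table, on the minus strand of the reference, written 5′ to 3′ along the gene, and they are limited to bases upstream of the start that lie in no exon of GENCODE v44. Capitals mark a match to the E2F motif, searched as TTTCCCGC and TTTGGCGC on both strands.
PPAT chr4:56435616-56435740: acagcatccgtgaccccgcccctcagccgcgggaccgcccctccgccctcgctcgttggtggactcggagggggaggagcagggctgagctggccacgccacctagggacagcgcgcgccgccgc
ORC1 chr1:52404424-52404601: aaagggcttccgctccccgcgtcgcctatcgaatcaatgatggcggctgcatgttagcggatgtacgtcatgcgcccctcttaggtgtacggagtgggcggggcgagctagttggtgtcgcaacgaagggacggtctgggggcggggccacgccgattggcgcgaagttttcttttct
PCNA chr20:5126627-5126872: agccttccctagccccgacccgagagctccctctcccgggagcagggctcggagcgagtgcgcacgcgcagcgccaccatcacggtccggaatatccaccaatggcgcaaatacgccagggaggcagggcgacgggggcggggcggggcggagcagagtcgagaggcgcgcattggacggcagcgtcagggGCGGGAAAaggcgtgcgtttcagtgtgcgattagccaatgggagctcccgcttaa

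The PPAT stretch of 125 bases ends next to the first start that GENCODE v44 gives for PAICS, the neighbouring purine gene on the opposite strand, at position 56435741. The RefSeq tables differ and place the start of PAICS at 56410507, within PPAT. The PCNA stretch holds 1 match, GCGGGAAA, which is the reverse complement of TTTCCCGC and begins at position -59 from the start site. Neither motif occurs in the printed stretches of PPAT and ORC1. In the 250 bases before the start, an E2F match was present in 11 of the 50 genes of the set that matched the RefSeq promoter table (22%), against 536 of all 27305 promoters (1.96%). The 11 were TYMS, CDT1, MCM3, MCM6, MCM7, GINS2, PCNA, RFC3, POLA1, POLE and LIG1. Of these 11, none was called with DFO at 24 h, and with T003 at 24 h the called ones were PCNA and LIG1, both lower. Over all genes tested, 6.7% and 12.5% were called in these comparisons. A match of letters is a description and not a measured binding site. Other forms of the motif were not searched, so the lack of a match does not mean that an E2F site is absent.

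Levels of the set differed widely between genes and little between groups. Per kilobase of the reference transcript, mean levels over the 10 libraries ran from 7.92 CPM (TMM-scaled counts relative to library size) for DHODH, the mitochondrial enzyme of pyrimidine synthesis, to 259 CPM for MCM7, a subunit of the helicase, with a median of 49.9. After MCM7 came MCM3 at 233, ATIC at 218, PCNA at 217 and MCM4 at 195 CPM per kilobase. The ratio of the highest to the lowest of the 5 group means was 1.02 to 1.21 with a median of 1.08, and it stayed under 1.1 in 43 of the 58 genes. PPAT had the largest ratio. Together the 58 genes took 1.19% to 1.22% of each library, and library totals ran from 107117892 to 143575614 estimated counts. As a check of the agents, TFRC, the gene of transferrin receptor 1, averaged 834 ± 0.812 CPM with DFO at 24 h and 846 ± 1.32 with T003 at 24 h, against 171 ± 8.46 in untreated cells (SD, n = 2).

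**Figure D1:**
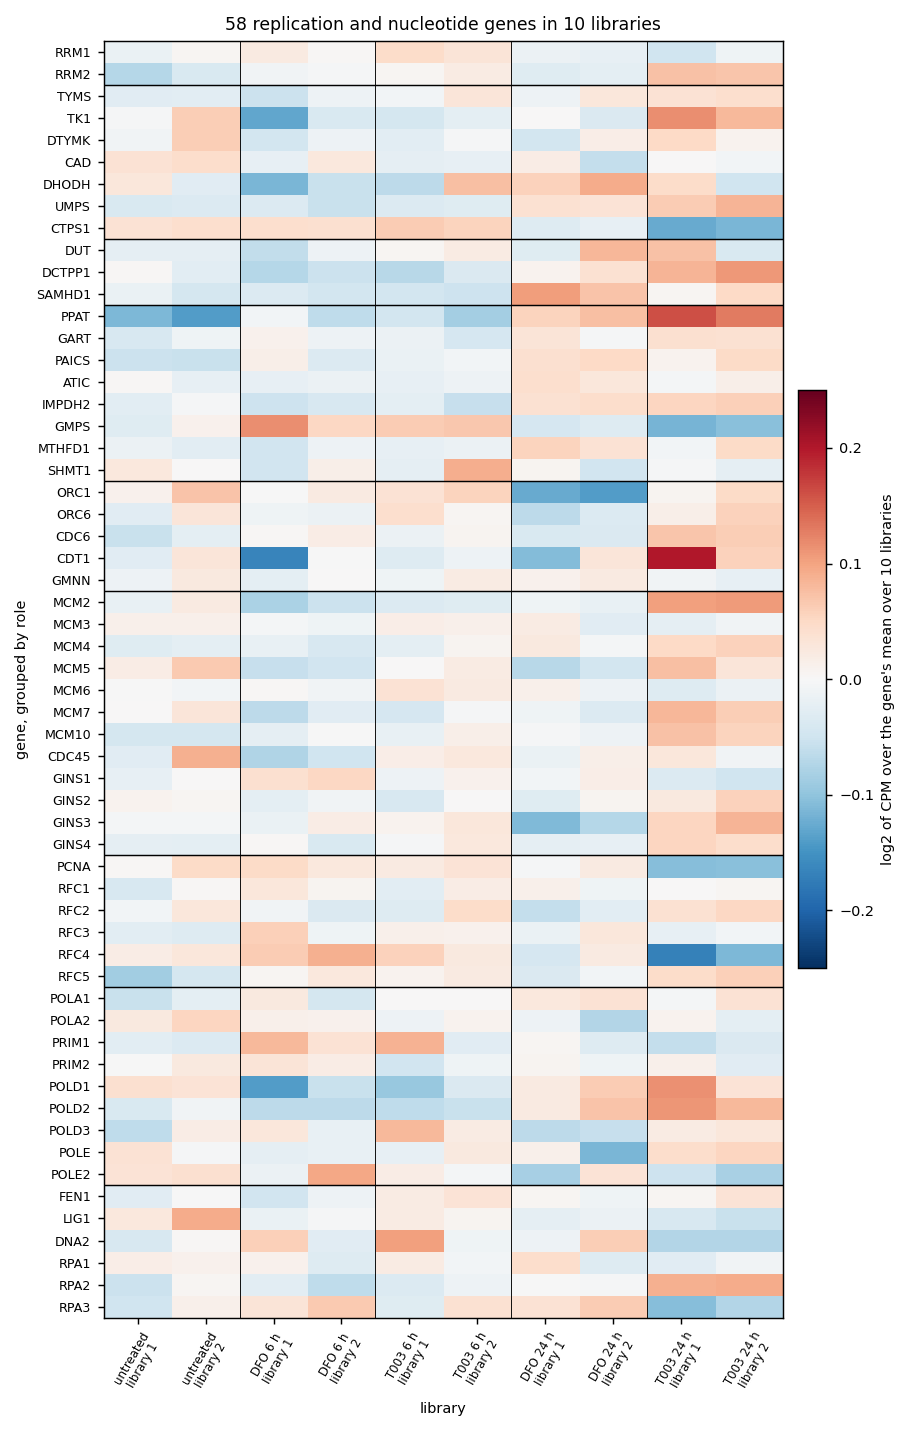
Level of each of the 58 genes in each of the 10 libraries, as log2 of TMM-scaled CPM over the gene's own mean, with genes down the page grouped by role and libraries across in order of time. Blocks seen in both libraries of a group include PPAT (low in untreated cells, high after 24 h of T003), CTPS1, PCNA and RFC4 (low after 24 h of T003) and ORC1 (low after 24 h of DFO). Single libraries of other genes stand out too, such as CDT1 in T003 24 h replicate 1 (109 CPM against a mean of 95.1).

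After 24 h of DFO, 5 of the 58 genes changed against untreated cells (adjusted p under 0.05, edgeR quasi-likelihood test, adjusted over 20125 genes). PPAT, PAICS and SAMHD1 rose, and ORC1 and MCM5 fell. That is 8.62% of the set, and 6.7% of all genes tested were called in the same comparison, 3.43% higher and 3.27% lower. After 24 h of T003, 17 genes changed, 12 upward and 5 downward, which is 29.3% of the set against 12.5% of all genes tested (7.1% higher and 5.44% lower). Abundant genes were called more often. Among the 7308 genes whose mean level lay within the range of the set, a background chosen after the data were seen, 15% were called with DFO at 24 h and 27.1% with T003 at 24 h. The set's share was thus below that background with DFO and near it with T003.

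The sizes of the changes were small. The median log2 fold change of the set was 0.0041 after DFO and 0.034 after T003 at 24 h, against -0.0023 and -0.0069 over all genes tested. The median size regardless of sign was 0.039 for the set and 0.059 for the 7308 genes of like abundance after DFO, and 0.055 and 0.073 after T003. The 95% interval of the change lay within 1.25-fold in either direction for all 58 genes after DFO and for 57 after T003, the exception being PPAT. These intervals come from the same model and are not adjusted for the number of genes. The counts leaned on single libraries: without untreated replicate 2 the calls after DFO numbered 1, without DFO 24 h replicate 1 they numbered 2, and without replicate 2 of that group 3. After T003 they numbered 5 and 6 without T003 24 h replicate 1 or 2, and 9 and 7 without untreated replicate 1 or 2. Over all genes tested, the calls also fell in some fits without 1 library, so the loss was not seen in the set alone. Both comparisons use the same untreated libraries, so the lists of calls are not independent.

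Markers of cell division moved at the same time. Of 18 genes of G2 phase and mitosis, 5 fell with DFO at 24 h and 9 with T003 at 24 h, and none rose. That is 27.8% and 50% of them, against 3.27% and 5.44% of all genes tested called lower. Among the 7308 genes within the level range of the set, 15% and 27.1% were called in either direction. Their summed level was 3767.8 to 3872 CPM with DFO at 24 h and 3686 to 3743 with T003 at 24 h, against 4146 to 4233 in untreated cells. CENPF, a kinetochore protein of G2 and mitosis, fell by 0.60 ± 0.043 (SE) on the log2 scale with DFO (adjusted p = 2.37e-05, edgeR) and by 0.65 ± 0.043 with T003 (adjusted p = 1.02e-05). BUB1, a spindle checkpoint kinase, fell by 0.44 ± 0.036 and 0.59 ± 0.036 (adjusted p = 5.27e-05 with DFO and 7.4e-06 with T003). The part that this difference in cell cycle markers had in the changes of the replication genes was not tested.

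**Figure D2:**
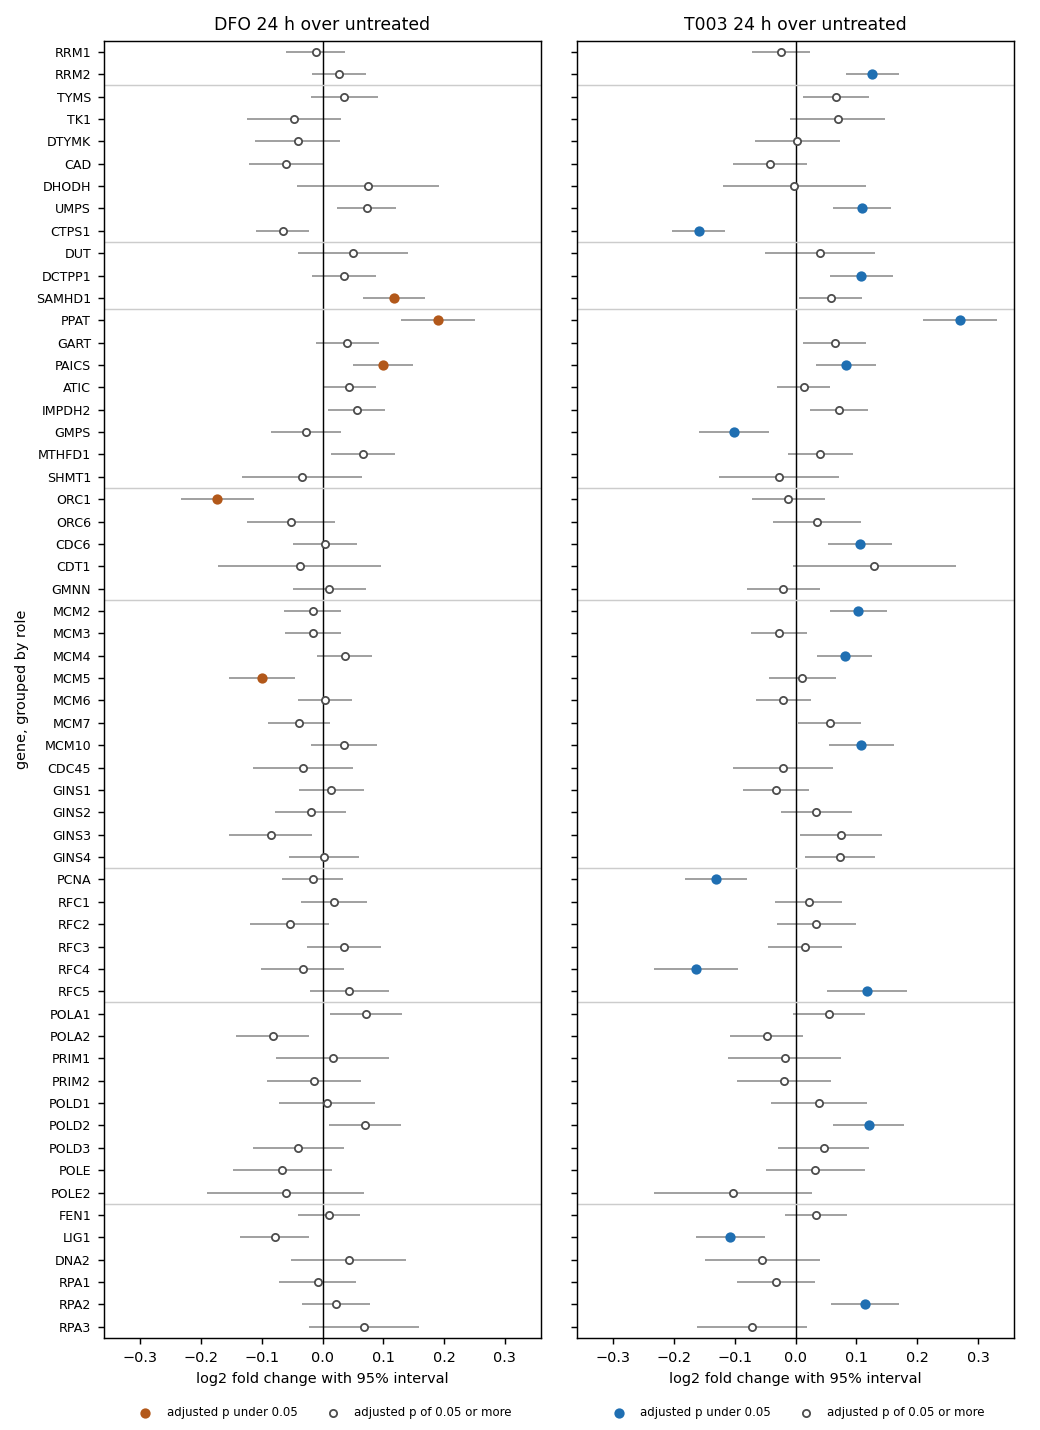
Log2 fold change of each gene after 24 h of DFO (left) and 24 h of T003 (right) over untreated cells, with 95% intervals and genes in the same order of roles. Filled points passed the adjusted p of 0.05: 5 with DFO, 17 with T003, and PPAT at 0.27 with T003 is the point farthest from 0.

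Ribonucleotide reductase was nearly level, with a rise of its small subunit after T003. RRM2, the iron-holding subunit (chromosome 2, 10122568 to 10211010, plus strand, hg38), stood at 504 and 507 CPM after 24 h of DFO and 543 and 541 after 24 h of T003, against 490.2 and 502 in untreated cells, with 512 and 515 at 6 h of DFO and 517 and 523 at 6 h of T003. Both libraries of 24 h of T003 lay above all other libraries, while those of 24 h of DFO lay just above the untreated ones. The log2 fold change was 0.13 ± 0.020 (SE, adjusted p = 0.00214, edgeR) with T003 and 0.03 ± 0.020 (SE, adjusted p = 0.545, edgeR) with DFO. RRM1, the large catalytic subunit, had 308 and 307 CPM after 24 h of DFO and 301 and 309 after 24 h of T003, against 308 and 312 in untreated cells, with 316 and 312 at 6 h of DFO and 322 and 319 at 6 h of T003. Its libraries overlapped between each agent at 24 h and untreated cells, and the 95% interval of the log2 change was -0.06 to 0.04 with DFO and -0.07 to 0.02 with T003.

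Among 7 thymidylate and pyrimidine enzymes, UMPS rose and CTPS1 fell after 24 h of T003, and none passed the test with DFO. That is 28.6% of them with T003, against 12.5% of all genes tested and 27.1% of the 7308 genes of like abundance. CTPS1, which turns UTP into CTP (chromosome 1, 40979696 to 41012565, plus strand, hg38), had 252 and 254 CPM after 24 h of DFO and 236 and 238 after 24 h of T003, against 265 and 266 in untreated cells, with 266 and 265 at 6 h of DFO and 269.8 and 268 at 6 h of T003. The T003 libraries were the lowest of the 10, the DFO libraries at 24 h came next, and neither pair overlapped the untreated one. Its log2 fold change was -0.16 ± 0.020 (SE, adjusted p = 0.000516, edgeR) with T003 and -0.07 ± 0.020 (SE, adjusted p = 0.0806, edgeR) with DFO. UMPS, which completes the synthesis of UMP, had 155 and 155 CPM after 24 h of DFO and 158 and 160.1 after 24 h of T003, against 147 and 147 in untreated cells, with 147 and 145 at 6 h of DFO and 147 and 148 at 6 h of T003. The log2 fold change of UMPS was 0.11 ± 0.022 (SE, adjusted p = 0.00735, edgeR) with T003 and 0.07 ± 0.022 (SE, adjusted p = 0.0798, edgeR) with DFO. The UMPS call with T003 was lost without T003 24 h replicate 2 or untreated replicate 2 (adjusted p up to 0.0631).

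TYMS, which makes thymidylate and is a target of fluorouracil, had 203 and 209 CPM after 24 h of DFO and 209.8 and 211 after 24 h of T003, against 201 and 201 in untreated cells, with 197 and 203 at 6 h of DFO and 204 and 209 at 6 h of T003. Both agents' libraries at 24 h lay above the untreated pair, but the log2 fold changes of 0.04 ± 0.025 (SE, adjusted p = 0.512, edgeR) with DFO and 0.07 ± 0.025 (SE, adjusted p = 0.117, edgeR) with T003 did not pass the test. TK1, the salvage kinase for thymidine, had 99.5 and 97.05 CPM after 24 h of DFO and 108 and 105 after 24 h of T003, against 99.2 and 104 in untreated cells, with 90.9 and 96.9 at 6 h of DFO and 96.4 and 97.9 at 6 h of T003. Its DFO libraries overlapped the untreated ones and its T003 libraries lay above them without passing the test (adjusted p = 0.558 with DFO and 0.269 with T003, edgeR). CAD, the enzyme of the first steps of pyrimidine synthesis, had 267 and 253 CPM after 24 h of DFO and 264 and 263 after 24 h of T003, against 271 and 272 in untreated cells, with 260.3 and 269 at 6 h of DFO and 259.8 and 260.3 at 6 h of T003. Both agents' libraries lay below the untreated ones, and the log2 changes of -0.06 with DFO and -0.04 with T003 did not pass the test. The last genes of this group are DTYMK, the thymidylate kinase, and DHODH. Their log2 fold changes were -0.04 and 0.07 with DFO and 0.0028 and -0.0019 with T003, none past the test.

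Of 3 enzymes that remove nucleotides, SAMHD1 rose after 24 h of DFO and DCTPP1 after 24 h of T003. Each is 33.3% of a very short list, against 6.7% of all genes tested with DFO and 12.5% with T003. SAMHD1 cleaves deoxynucleotides into nucleosides and phosphate, and it had 327 and 319.7 CPM after 24 h of DFO and 305 and 315 after 24 h of T003, against 301 and 295 in untreated cells, with 297 and 295 at 6 h of DFO and 295 and 294 at 6 h of T003. The DFO libraries at 24 h were the highest of the 10, and those of T003 lay between them and the rest. The log2 fold change was 0.12 ± 0.023 (SE, adjusted p = 0.0125, edgeR) with DFO and 0.06 ± 0.023 (SE, adjusted p = 0.152, edgeR) with T003. DCTPP1, which removes modified and surplus dCTP, had 214 and 219 CPM after 24 h of DFO and 226 and 229.5 after 24 h of T003, against 213 and 209 in untreated cells, with 203 and 205 at 6 h of DFO and 203 and 208 at 6 h of T003. It rose with T003 by 0.11 ± 0.024 (SE, adjusted p = 0.0125, edgeR), and its log2 fold change with DFO was 0.04 ± 0.024 (SE, adjusted p = 0.492, edgeR). DUT, which keeps dUTP out of DNA, had log2 fold changes of 0.05 with DFO and 0.04 with T003 and did not pass with either. The SAMHD1 call was lost without DFO 24 h replicate 1 or untreated replicate 2 (adjusted p up to 0.111), and the DCTPP1 call without either T003 24 h library or untreated replicate 2 (up to 0.132).

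Purine synthesis held the largest change of the set. PPAT, the amidotransferase that commits the cell to making purines (chromosome 4, 56393362 to 56435615, minus strand, hg38), had 142 and 144 CPM after 24 h of DFO and 152 and 149 after 24 h of T003, against 126 and 124 in untreated cells, with 136 and 131 at 6 h of DFO and 132 and 129 at 6 h of T003. All 4 libraries at 24 h lay above the 4 at 6 h, and those lay above both untreated ones. PPAT rose by 0.19 ± 0.027 (SE, adjusted p = 0.00198, edgeR) with DFO and by 0.27 ± 0.027 (SE, adjusted p = 0.000138, edgeR) with T003. Both calls held under all 16 alternative settings. In percent, the rise was 14.1% with DFO and 20.6% with T003.

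PAICS, whose enzyme carries out later steps of the same pathway, had 746 and 751 CPM after 24 h of DFO and 729.5 and 749.6 after 24 h of T003, against 699 and 698 in untreated cells, with 733 and 709 at 6 h of DFO and 717 and 722 at 6 h of T003. All libraries of the agents lay above both untreated ones. PAICS rose by 0.10 ± 0.022 (SE, adjusted p = 0.0232, edgeR) with DFO and 0.08 ± 0.022 (SE, adjusted p = 0.0347, edgeR) with T003. Among the fits with 1 library left out, these calls were lost without any of the 4 libraries compared and, with T003, also without T003 6 h replicate 1 (adjusted p up to 0.129 with DFO and 0.244 with T003). The spans of PPAT and PAICS overlap in the RefSeq gene table, how strand was used in counting is not known from the sources, and a processed copy, PAICSP1, held 5.01% as many counts as PAICS, so reads of these genes could be shared.

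GMPS, which makes GMP from XMP, fell with T003. It had 177 and 179 CPM after 24 h of DFO and 168 and 169.9 after 24 h of T003, against 179 and 184 in untreated cells, with 198 and 189 at 6 h of DFO and 191 and 191 at 6 h of T003. The T003 libraries at 24 h were the lowest of the 10 and the 6 h libraries of both agents the highest. On the log2 scale the fold change of GMPS was -0.10 ± 0.026 (SE, adjusted p = 0.0283, edgeR) with T003 and -0.03 ± 0.026 (SE, adjusted p = 0.667, edgeR) with DFO. Its T003 call was lost without either T003 24 h library or untreated replicate 2 (adjusted p up to 0.199). GART and ATIC, which carry out further steps of purine synthesis, IMPDH2, which feeds the synthesis of GMP, and MTHFD1 and SHMT1, which supply folate carbon units, did not pass at 24 h with either agent. Their log2 changes lay between -0.03 (SHMT1) and 0.07 (MTHFD1) with DFO and between -0.03 (SHMT1) and 0.07 (IMPDH2) with T003.

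Among 5 origin licensing genes, ORC1 fell after 24 h of DFO and CDC6 rose after 24 h of T003. Each is 20% of this short list, against 6.7% of all genes tested with DFO and 12.5% with T003. ORC1, the large subunit of the origin recognition complex (chromosome 1, 52372829 to 52409503, minus strand, hg38), had 125 and 124 CPM after 24 h of DFO and 137 and 141 after 24 h of T003, against 137 and 143 in untreated cells, with 136 and 139 at 6 h of DFO and 140.04 and 142 at 6 h of T003. The DFO libraries at 24 h lay below the 8 others. The log2 fold change of ORC1 was -0.17 ± 0.027 (SE, adjusted p = 0.0035, edgeR) with DFO and -0.01 ± 0.027 (SE, adjusted p = 0.861, edgeR) with T003. The DFO call was lost without untreated replicate 2 alone (adjusted p = 0.0622). In the RefSeq gene table the span of ORC1 overlaps PRPF38A, a splicing factor gene on the other strand with 132% as many counts. From the start used for the printed stretch, ORC1 lies below 52404424. The PRPF38A exon upstream of that start begins at 52404602 in GENCODE v44, so the sources differ on the overlap. Reads in any shared exons cannot be told apart without strand, and how many there are is not known. The log2 fold change of PRPF38A itself was -0.01 ± 0.029 (SE) with DFO and did not pass (adjusted p = 0.899, edgeR).

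CDC6, which joins the recognition complex to load the helicase, had 111 and 111 CPM after 24 h of DFO and 119 and 119 after 24 h of T003, against 109 and 112 in untreated cells, with 114 and 115 at 6 h of DFO and 113 and 114 at 6 h of T003. The T003 libraries at 24 h were the highest of the 10, and those of DFO fell within the untreated pair. Its log2 fold change was 0.11 ± 0.024 (SE, adjusted p = 0.014, edgeR) with T003 and 0.0043 ± 0.024 (SE, adjusted p = 0.963, edgeR) with DFO. The T003 call was lost without either T003 24 h library or untreated replicate 1 (adjusted p up to 0.119). CDT1, the other loader, varied most within groups, with 88.2 and 97.1 CPM after 24 h of DFO and 109 and 98.95 after 24 h of T003, against 93.2 and 97.04 in untreated cells, with 84.8 and 94.97 at 6 h of DFO and 92.9 and 94.2 at 6 h of T003. Its change did not pass with either agent (adjusted p = 0.833 with DFO and 0.226 with T003, edgeR). ORC6 and GMNN, the gene of geminin, which restrains CDT1, did not pass either.

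The helicase group of 12 genes held 1 fall with DFO and 3 rises with T003. That is 8.33% and 25%, against 6.7% and 12.5% of all genes tested and 15% and 27.1% of the 7308 genes of like abundance. MCM2 had 516 and 513 CPM after 24 h of DFO and 558 and 559.6 after 24 h of T003, against 513 and 528 in untreated cells, with 492 and 501 at 6 h of DFO and 508 and 509 at 6 h of T003. Its T003 libraries at 24 h stood above all the others, and its DFO libraries at 24 h overlapped the untreated ones. On the log2 scale the fold change of MCM2 was 0.10 ± 0.021 (SE, adjusted p = 0.00894, edgeR) with T003 and -0.02 ± 0.021 (SE, adjusted p = 0.78, edgeR) with DFO. MCM5 had 244 and 248 CPM after 24 h of DFO and 269.99 and 262 after 24 h of T003, against 259.6 and 268 in untreated cells, with 246 and 248 at 6 h of DFO and 257 and 260.1 at 6 h of T003. Here the DFO libraries at 24 h lay below the untreated pair and the T003 libraries overlapped it. That of MCM5 was -0.10 ± 0.025 (SE, adjusted p = 0.0368, edgeR) with DFO and 0.01 ± 0.025 (SE, adjusted p = 0.866, edgeR) with T003.

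MCM4 had 807 and 791 CPM after 24 h of DFO and 822 and 826 after 24 h of T003, against 778 and 780.3 in untreated cells, with 784 and 773 at 6 h of DFO and 781 and 798 at 6 h of T003. It rose by 0.08 ± 0.021 (SE, adjusted p = 0.0265, edgeR) with T003. MCM10, which helps to start the assembled helicase, had 99.6 and 98.9 CPM after 24 h of DFO and 105 and 104 after 24 h of T003, against 96.9 and 96.8 in untreated cells, with 98.3 and 99.7 at 6 h of DFO and 98.5 and 101 at 6 h of T003. It rose by 0.11 ± 0.024 (SE, adjusted p = 0.0148, edgeR) with T003, and with DFO neither MCM4 nor MCM10 passed. MCM3, MCM6 and MCM7 had log2 fold changes of -0.03, -0.02 and 0.06 with T003, none past the test, so calls differed among subunits of the same hexamer, and whether the subunits differ from each other was not tested. CDC45 and the 4 GINS genes did not pass against untreated cells with either agent.

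These helicase calls rested on few libraries. The MCM2 call was lost without either T003 24 h library or untreated replicate 1 (adjusted p up to 0.0916). MCM4 and MCM10 lost theirs without any 1 of the 4 libraries compared (up to 0.153 and 0.117). MCM5 lost its call under 10 of the 16 settings, among them the omission of either library at 6 h of either agent, either DFO 24 h library, T003 24 h replicate 2 or untreated replicate 2 (up to 0.357).

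In the clamp and clamp loader group of 6 genes, PCNA and RFC4 fell and RFC5 rose after 24 h of T003, and none passed with DFO. That is 50% of them with T003, against 12.5% of all genes tested and 27.1% of the 7308 genes of like abundance. PCNA, the ring that holds polymerases on DNA (chromosome 20, 5114953 to 5126622, minus strand, hg38), had 276 and 281 CPM after 24 h of DFO and 257 and 258 after 24 h of T003, against 278 and 286 in untreated cells, with 286 and 282 at 6 h of DFO and 281 and 283 at 6 h of T003. The T003 libraries at 24 h were the lowest, with the other 8 lying between 276 and 286. The log2 fold change of PCNA was -0.13 ± 0.023 (SE, adjusted p = 0.00355, edgeR) with T003, a call that held under all 16 settings, and -0.02 ± 0.023 (SE, adjusted p = 0.804, edgeR) with DFO. RFC4, a small subunit of the loader, had 83.9 and 87.6 CPM after 24 h of DFO and 76.8 and 79.8 after 24 h of T003, against 87.4 and 87.99 in untreated cells, with 90.1 and 91.8 at 6 h of DFO and 89.9 and 87.8 at 6 h of T003. RFC5, another subunit, had 60.3 and 61.5 CPM after 24 h of DFO and 63.8 and 64.4 after 24 h of T003, against 58.2 and 59.97 in untreated cells, with 61.99 and 62.97 at 6 h of DFO and 62.2 and 62.8 at 6 h of T003.

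With T003 the log2 fold changes of these subunits had opposite signs, at -0.16 ± 0.031 (SE, adjusted p = 0.00572, edgeR) for RFC4 and 0.12 ± 0.030 (SE, adjusted p = 0.025, edgeR) for RFC5. The RFC4 call was lost without T003 24 h replicate 1 or untreated replicate 2 (adjusted p up to 0.0541). RFC5 lost its call without T003 6 h replicate 1 or any of the 4 libraries compared (up to 0.188), and in a model of the compared groups alone (0.0612). Neither gene passed with DFO, and RFC1, RFC2 and RFC3 passed with neither agent.

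Of 9 primase and polymerase genes, 1 rose, after T003. That is 11.1% of them, against 12.5% of all genes tested and 27.1% of the 7308 genes of like abundance. POLD2, the second subunit of polymerase delta, had 98.9 and 102 CPM after 24 h of DFO and 105 and 103 after 24 h of T003, against 94.8 and 96.8 in untreated cells, with 93.1 and 93.1 at 6 h of DFO and 93.2 and 93.7 at 6 h of T003. Its T003 libraries at 24 h were the highest, and the log2 fold change was 0.12 ± 0.027 (SE, adjusted p = 0.0135, edgeR) with T003 and 0.07 ± 0.027 (SE, adjusted p = 0.168, edgeR) with DFO. The call was lost without T003 24 h replicate 1 or either untreated library (adjusted p up to 0.117). POLD1, the catalytic subunit of the same polymerase, had 186 and 191 CPM after 24 h of DFO and 198 and 187 after 24 h of T003, against 188 and 187 in untreated cells, with 166 and 176 at 6 h of DFO and 171 and 178 at 6 h of T003. It was lowest at 6 h, and at 24 h both agents' libraries overlapped the untreated ones.

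POLA1, the catalytic subunit of polymerase alpha, had 261 and 262 CPM after 24 h of DFO and 255 and 262 after 24 h of T003, against 246 and 251 in untreated cells, with 260.1 and 248 at 6 h of DFO and 256 and 256 at 6 h of T003. PRIM2, the large primase subunit, had 41.3 and 40.8 CPM after 24 h of DFO and 41.5 and 40.3 after 24 h of T003, against 41.1 and 41.8 in untreated cells, with 42.1 and 41.7 at 6 h of DFO and 39.8 and 40.8 at 6 h of T003. POLE, the catalytic subunit of polymerase epsilon, had 134 and 123 CPM after 24 h of DFO and 137 and 138 after 24 h of T003, against 136 and 132 in untreated cells, with 131 and 131 at 6 h of DFO and 131 and 135 at 6 h of T003. None of the 3 passed at 24 h, and the 24 h libraries of PRIM2 overlapped the untreated ones with both agents. The 95% intervals of the log2 change with T003 were -0.0041 to 0.11 for POLA1, -0.10 to 0.06 for PRIM2 and -0.05 to 0.11 for POLE.

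In the group of 6 flap, ligase and single-strand binding genes, LIG1 fell and RPA2 rose after 24 h of T003, and none passed with DFO. LIG1, which seals nicks between Okazaki fragments, had 142 and 143 CPM after 24 h of DFO and 141 and 139 after 24 h of T003, against 147 and 154 in untreated cells, with 143 and 144 at 6 h of DFO and 147 and 145 at 6 h of T003. Both agents' libraries at 24 h lay below the untreated pair, and the log2 fold change was -0.11 ± 0.026 (SE, adjusted p = 0.0197, edgeR) with T003 and -0.08 ± 0.026 (SE, adjusted p = 0.109, edgeR) with DFO. RPA2, the middle subunit of replication protein A, which coats single-stranded DNA, had 183 and 183 CPM after 24 h of DFO and 195 and 196 after 24 h of T003, against 177 and 184 in untreated cells, with 180.1 and 176 at 6 h of DFO and 179 and 182 at 6 h of T003. Its T003 libraries at 24 h were the highest, and its log2 fold change was 0.11 ± 0.025 (SE, adjusted p = 0.0138, edgeR) with T003 and 0.02 ± 0.025 (SE, adjusted p = 0.75, edgeR) with DFO.

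The LIG1 call was lost without either T003 24 h library or untreated replicate 2 (adjusted p up to 0.191) and in a model of the compared groups alone (0.0585). The RPA2 call was lost without either T003 24 h library or untreated replicate 1 (up to 0.128). DNA2, a nuclease that trims long flaps, had 82.6 and 87.01 CPM after 24 h of DFO and 79.2 and 79.3 after 24 h of T003, against 81.1 and 83.5 in untreated cells, with 86.9 and 81.7 at 6 h of DFO and 89.5 and 82.8 at 6 h of T003. It did not pass with either agent. RPA1, RPA3 and FEN1, the main flap nuclease, did not pass either.

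Taken by cofactor, 6 genes of the set were listed as encoding proteins known to hold iron or an iron-sulfur cluster, and the list may not be complete. They are RRM2, PPAT, PRIM2, POLD1, DNA2 and POLE. Of these, PPAT alone was called with DFO and PPAT and RRM2 with T003, all higher, and none was called lower with either agent. That is 16.7% and 33.3% of the list, against 6.7% and 12.5% of all genes tested. Among the 7308 genes of like abundance it was 15% and 27.1%. Their summed level was 1089.7 and 1092 CPM with DFO at 24 h and 1151 and 1135 with T003 at 24 h, against 1063 and 1071 in untreated cells. RRM2 weighs heavily in this sum, since it alone averaged 542 CPM with T003 at 24 h and 496 in untreated cells. By gene, 4 of the 6 had a log2 fold change above 0 and 2 below 0 with each agent at 24 h. In the sum, the libraries of T003 lay above those of DFO, which lay above the untreated ones. The sum over all 58 genes had the same order. It was 12264 and 12295 CPM with T003 at 24 h, 12099 and 12076 with DFO at 24 h, and 11932 and 12066 in untreated cells.

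The agents were then set against each other at the same time. DFO is a small chelator and T003 an antibody, and no dose series links them, so the comparison holds for 1 dose of each. After 24 h, 6 of the 58 genes differed (10.3%), against 1.34% of all genes tested (0.457% higher and 0.884% lower) and 3.38% of the 7308 genes of like abundance. PCNA and CTPS1 were higher with DFO, and RRM2, MCM2, GINS3 and ORC1 were lower with DFO than with T003. The median log2 difference of the set, DFO over T003, was -0.020, against 0 over all genes tested.

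GINS3, a subunit of the helicase activator, had 53.5 and 54.99 CPM after 24 h of DFO and 59.97 and 61.3 after 24 h of T003, against 57.5 and 57.6 in untreated cells, with 57.1 and 58.5 at 6 h of DFO and 58.1 and 58.9 at 6 h of T003. Its DFO libraries at 24 h were the lowest of the 10 and its T003 libraries at 24 h the highest. The log2 difference of DFO over T003 was -0.16 ± 0.031 (SE, adjusted p = 0.0373, edgeR). For ORC1, at 125 and 124 CPM with DFO at 24 h and 137 and 141 with T003 at 24 h, the difference was -0.16 ± 0.027 (SE, adjusted p = 0.024, edgeR). MCM2 had 516 and 513 CPM with DFO at 24 h and 558 and 559.6 with T003 at 24 h, a difference of -0.12 ± 0.021 (SE, adjusted p = 0.0297, edgeR). RRM2 differed by -0.10 ± 0.020 (SE, adjusted p = 0.0432, edgeR), PCNA by 0.12 ± 0.023 (SE, adjusted p = 0.0398, edgeR), and CTPS1 by 0.09 ± 0.020 (SE, adjusted p = 0.0497, edgeR).

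The libraries of the agents did not overlap for any of these 6 genes. Over all genes tested, the DFO libraries lay wholly above those of T003 for 21.4% and wholly below them for 22.5%. The calls were not stable. In a model of these 4 libraries alone, none of the 58 genes passed, and 16 settings left none of the 6 calls intact throughout. Leaving out either T003 6 h library, either DFO 24 h library or either T003 24 h library also left 0 calls, and leaving out DFO 6 h replicate 2 or either untreated library left 3. The direction of the 6 differences was the same in every setting. For the other 52 genes the 95% intervals of the log2 difference stayed between -0.30 and 0.23, so larger differences than that were outside them, and a p that misses the threshold does not show that the agents acted alike.

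**Figure D3:**
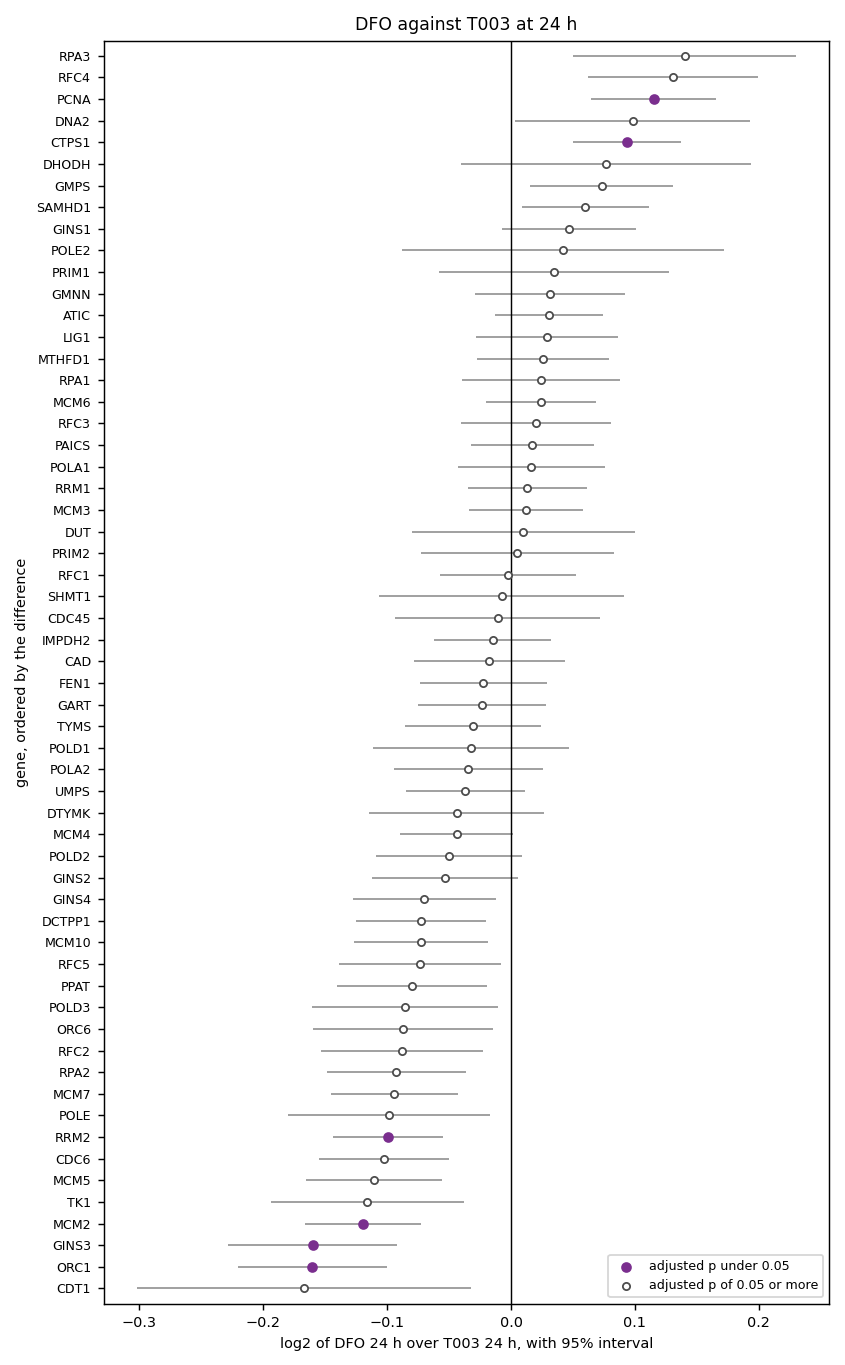
Log2 difference of DFO over T003 at 24 h for the 58 genes, ordered by size, with 95% intervals that are not adjusted for the number of genes. The 6 filled points passed the adjusted p of 0.05: PCNA and CTPS1 lie to the right of 0, and RRM2, MCM2, GINS3 and ORC1 to the left.

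At 6 h nothing in the set passed the test. Against untreated cells, 0 of 58 genes were called with DFO and 0 with T003, where 0.0248% and 0.0298% of all genes were called. At an unadjusted p under 0.05 there were 12 genes of the set with DFO and 5 with T003. Over all 20125 genes tested there were 2494 and 1516. DESeq2 called 6 genes of the set with DFO and 0 with T003, and its counts over all genes are not given here. DFO and T003 at 6 h did not differ in any gene of the set by edgeR, nor in any of the 20125 genes tested (0%). At an unadjusted p under 0.05 this comparison held 3 genes of the set and 1334 of all genes tested. By size the leading genes with DFO at 6 h were POLD1 at -0.13, TK1 at -0.11, MCM5 at -0.09, GMPS at 0.09 and CDC45 at -0.09 on the log2 scale.

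Comparing 24 h with 6 h of the same agent leaves the level in untreated cells aside. Time under the agent and time in culture cannot be told apart here either. With DFO, 9 genes changed from one time to the other, 7 higher and 2 lower at 24 h (15.5% of the set, against 9.89% of all genes, 5.29% higher and 4.6% lower, and 21.4% of those of like abundance). With T003, 14 changed, 10 higher and 4 lower (24.1%, against 13.5% of all genes, 7.55% higher and 5.93% lower, and 29.4% of those of like abundance). UMPS, DCTPP1, PPAT, IMPDH2, POLD1 and POLD2 were higher at 24 h with both agents and GMPS was lower with both. IMPDH2 makes XMP for GMP synthesis, and it rose by 0.09 ± 0.021 (SE, adjusted p = 0.0246, edgeR) with DFO and 0.10 ± 0.021 (SE, adjusted p = 0.0115, edgeR) with T003. POLD1 rose by 0.14 ± 0.036 (SE, adjusted p = 0.0322, edgeR) with DFO and 0.14 ± 0.036 (SE, adjusted p = 0.0246, edgeR) with T003, having been at its lowest at 6 h.

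With DFO, SAMHD1 was also higher at 24 h than at 6 h and ORC1 lower. With T003, TK1, MCM2, MCM7 and RPA2 were also higher and CTPS1, PCNA and RFC4 lower. In some fits without 1 library, calls at 24 h against 6 h fell over all genes tested as well as in the set. The count with DFO fell to 1 to 5 without any 1 of DFO 24 h replicate 2 (1), DFO 24 h replicate 1 (2), DFO 6 h replicate 1 (3), DFO 6 h replicate 2 (4) or untreated replicate 1 (5). The count with T003 was 9 without T003 6 h replicate 1 or either T003 24 h library.

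**Figure D4:**
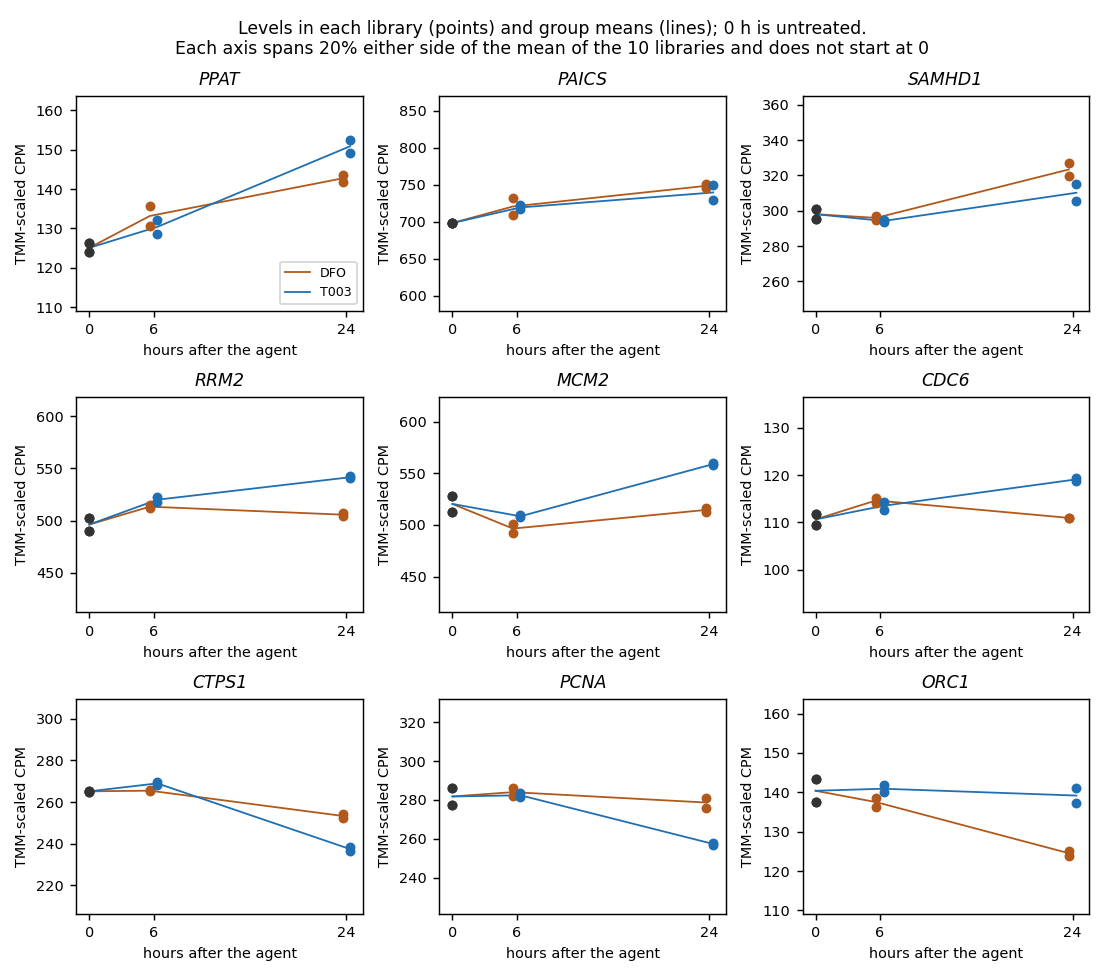
Levels of 9 genes in TMM-scaled CPM against hours after the agent, with a point for each library and lines through the group means; 0 h is untreated and is shared by both agents, and the axes do not start at 0. PPAT climbs with both agents, CTPS1 and PCNA drop with T003 between 6 h and 24 h, ORC1 drops with DFO, and RRM2, MCM2 and CDC6 separate at 24 h with T003 on top.

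Group means over time show the same order. PPAT averaged 125 ± 1.61 CPM at 0 h, 133 ± 3.66 at 6 h and 143 ± 1.33 at 24 h with DFO (SD, n = 2 each), and 130.4 ± 2.42 at 6 h and 151 ± 2.29 at 24 h with T003. CTPS1 averaged 265 ± 0.529 CPM at 0 h, 269 ± 1.18 at 6 h and 237 ± 1.39 at 24 h with T003. The drop of CTPS1 lay after 6 h, since both libraries at 6 h of T003 stood above the untreated ones. RRM2 had 490.2 and 502 CPM at 0 h, 517 and 523 at 6 h and 543 and 541 at 24 h with T003, and all 4 of those treated libraries lay above the untreated pair.

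Other genes of the same pathways were described by lists picked for function. Of 25 further enzymes of nucleotide synthesis, salvage and folate, 3 rose and none fell after 24 h of DFO. After 24 h of T003, 3 rose and 3 fell. The called shares were 12% with DFO and 24% with T003, against 6.7% and 12.5% of all genes tested. Among the 7308 genes within the level range of the set, a background not matched to the further lists, they were 15% and 27.1%. IMPDH1, the second form of the enzyme that feeds GMP synthesis, had the largest rise, of 0.29 ± 0.029 (SE) with DFO (adjusted p = 0.000215, edgeR) and 0.30 ± 0.029 with T003 (adjusted p = 0.000105). It averaged 107 ± 0.269 CPM with DFO at 24 h and 108 ± 2.73 with T003 at 24 h, against 87.5 ± 2.16 in untreated cells (SD, n = 2). PRPS2, which makes the PRPP that PPAT uses, rose by 0.14 ± 0.028 with DFO (adjusted p = 0.0114, edgeR) and 0.18 ± 0.028 with T003 (adjusted p = 0.00192). SHMT2, the mitochondrial serine hydroxymethyltransferase, fell by 0.14 ± 0.021 with T003 (adjusted p = 0.00166, edgeR).

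Of 21 further licensing, initiation and polymerase genes, 1 rose and 3 fell with DFO, and 2 rose and 3 fell with T003. The called shares were 19% with DFO and 23.8% with T003. They compare with 6.7% and 12.5% of all genes tested and 15% and 27.1% of the 7308 genes. TOP2A, a topoisomerase that peaks late in the cycle, fell by 0.19 ± 0.029 (SE) with T003 (adjusted p = 0.00175, edgeR). TOP1 rose with both agents, by 0.14 ± 0.022 with DFO (adjusted p = 0.00485, edgeR) and 0.10 ± 0.022 with T003 (adjusted p = 0.0167). Of 13 fork protection and checkpoint genes, 1 rose with DFO, and 1 rose and 1 fell with T003. For this list the called shares were 7.69% with DFO and 15.4% with T003, to be read against the same backgrounds. CDC25A, a phosphatase that releases cells into S phase, rose by 0.20 ± 0.026 with T003 (adjusted p = 0.000698, edgeR).

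Of 8 genes that assemble chromatin behind the fork, 1 fell with DFO, and 2 rose and 1 fell with T003. The called shares of this short list were 12.5% with DFO and 37.5% with T003. They compare with 6.7% and 12.5% of all genes tested and 15% and 27.1% of the 7308 genes. ASF1A, a histone chaperone, fell by 0.29 ± 0.043 (SE) with DFO (adjusted p = 0.00223, edgeR) and by 0.36 ± 0.043 with T003 (adjusted p = 0.000367). It averaged 39.8 ± 0.606 CPM with DFO at 24 h and 37.8 ± 0.931 after 24 h of T003, against 48.7 ± 2.80 in untreated cells (SD, n = 2). UHRF1, which carries DNA methylation through replication, rose with T003 by 0.14 ± 0.030 (adjusted p = 0.0119, edgeR) and was lower with DFO than with T003 by a log2 difference of -0.16 ± 0.030 (adjusted p = 0.0345).

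Of 14 genes of the E2F family, G1 and S phase cyclins and pocket proteins, 1 rose with DFO. With T003, 3 rose and 1 fell. The called shares were 7.14% with DFO and 28.6% with T003. They compare with 6.7% and 12.5% of all genes tested and 15% and 27.1% of the 7308 genes. E2F2, an activator of S phase genes, averaged 134 ± 3.72 CPM with DFO at 24 h and 155 ± 2.87 with T003 at 24 h, against 126 ± 1.91 in untreated cells (SD, n = 2). It rose by 0.29 ± 0.032 (SE) with T003 (adjusted p = 0.000225, edgeR), did not pass with DFO (0.09 ± 0.032, adjusted p = 0.137), and the difference of DFO over T003 was -0.20 ± 0.032 (adjusted p = 0.0184). E2F8, a repressor induced in S phase, rose by 0.24 ± 0.033 with T003 (adjusted p = 0.000908, edgeR) and also differed between the agents, by -0.20 ± 0.033 (adjusted p = 0.0202). CCNE2, a cyclin of the entry into S phase, rose by 0.44 ± 0.081 with T003 (adjusted p = 0.0047, edgeR), and its difference between the agents did not pass (-0.24 ± 0.081, adjusted p = 0.19).

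Markers of T and erythroid cells stayed near 0 in all 10 libraries. The summed level of T cell markers was 0 to 0.130 CPM and that of erythroid markers 0 to 0.279 CPM. Myeloid markers summed to 5.33 to 8.20 CPM. The 12 NK cell markers were all detected, and their sum was 3737 to 3772 CPM with DFO at 24 h and 3986 to 4022 with T003 at 24 h, against 3562 to 3622 in untreated cells, a difference whose part in the changes above was not tested. By gene these markers moved both ways, with 3 higher and 2 lower with DFO (log2 fold changes of all 12 from -0.33 to 0.20) and 6 higher and 2 lower with T003 (from -0.23 to 0.37). That is 41.7% and 66.7% of them, against 6.7% and 12.5% of all genes tested and 15% and 27.1% of the 7308 genes. For genes of the set that overlap another gene, or have processed copies, the counts may hold shared reads. Besides PPAT, PAICS and ORC1 this touches SHMT1 (SMCR8), GINS2 (GSE1), ATIC (FN1), RPA3 (UMAD1), PRIM2 (RAB23), TYMS (ENOSF1), RFC5 (WSB2), POLA1 (EEF1B2P3) and MTHFD1 (ZBTB25).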

How the data were processed

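The authors deposited 1 table of estimated counts per gene symbol for all 10 libraries, as whole numbers and not normalized. Per the submitters' processing notes and the series' design text, fastp 0.21.0 trimmed the paired reads of 101 bp, HISAT2 2.2.1 placed them on hg38, and StringTie 2.1.6 counted them on RefSeq genes. Whether counting used strand is not given in the sources. The design text names 24 h alone, whereas sample labels give 6 h and 24 h, and the labels were followed. Groups were taken from the labels, and no columns were left unmapped.

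The test was the quasi-likelihood F-test of edgeR 4.0.16 (R 4.3.3), with TMM scaling, group as the only term and all 10 libraries in 1 model. The filterByExpr filter at a minimum count of 10 left 20125 genes, over all of which p-values received the Benjamini-Hochberg adjustment. A gene is called when its adjusted p is under 0.05. The SE is the log2 fold change over the square root of F, and intervals use the model's t distribution. Levels are CPM scaled by TMM, with SD over 2 libraries. Levels per kilobase use the length of the MANE Select transcript in GENCODE v44. Promoters are RefSeq windows of 250 bases before the start. A count of 3 corresponds to 0.0209 to 0.0278 CPM, which covers counting error only. The test was tried on simulated counts, where the criterion first set was missed because weakly expressed genes were not recovered, and was then replaced by one for genes at higher levels.

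The 58 genes, their roles and the other lists were chosen with earlier results of these data known. Each gene may be named. Library values are printed for genes called at 24 h and for a panel of 18 core genes, and other lists give at most 4 called genes each. The background of 7308 genes was added after the data were seen. Alternatives were RLE scaling, no filter (for counts of calls alone), 1 CPM in 2 libraries, DESeq2 1.42.0, limma-voom (limma 3.58.1), the replicate number as a block, the compared groups alone, and leaving out each library.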

Additional observations from a re-analysis of the deposited data

Results flagged for a closer look

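After 24 h, 6 genes of the set differed between DFO and T003 in the test of the difference itself, which does not involve the untreated libraries' level. The log2 difference of DFO over T003 was -0.16 for ORC1, -0.16 for GINS3, -0.12 for MCM2 and -0.10 for RRM2, all lower with DFO, and 0.12 for PCNA and 0.0937 for CTPS1, both higher with DFO. Of these, ORC1 passed the test against untreated cells with DFO alone, RRM2, MCM2, PCNA and CTPS1 with T003 alone, and GINS3 with neither agent. CTPS1 with DFO also lay below untreated cells but missed the threshold (-0.07 ± 0.020, SE, adjusted p = 0.0806, edgeR). It passed with DFO under the 1 CPM filter, DESeq2 and limma-voom. G2 and mitosis markers, summed, were 3767.8 to 3872 CPM with DFO and 3686 to 3743 with T003 at the same time, and their part in these differences was not tested.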

How the results depend on the processing

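Among the genes repeated singly, at 24 h against untreated cells and between the agents, no value changed direction where it was called. The calls at 24 h against 6 h were repeated as counts alone. Of the calls at 24 h, PPAT with DFO (1 of 5) and RRM2, CTPS1, PPAT and PCNA with T003 (4 of 17) passed in all 16 settings run for single genes, and none of the 6 between DFO and T003 did. That last count was 3 with no filter, 13 with DESeq2, 2 with the replicate block and 0 with the compared groups alone. DESeq2 called 6 genes for DFO at 6 h against untreated cells, and the compared groups alone gave 2 for DFO at 24 h against 6 h. Leaving out 1 library gave 1 to 5 calls for DFO and 5 to 17 for T003 at 24 h against untreated cells, 0 to 4 between DFO and T003 at 24 h, 1 to 9 for DFO and 9 to 14 for T003 at 24 h against 6 h, and 0 in every comparison at 6 h. For the other counts no alternative apart from left-out libraries moved them by over 1.5 times. In the comparisons that involve 24 h, calls over all genes tested also fell in some fits without 1 library. Across single genes, 121 of the repeated tests lost a call and 11 gained one, while 1356 kept their side of the threshold.

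Over all 20125 genes tested, deviations of same-numbered libraries correlated at -0.052 to 0.012 over 10 pairs of groups, none above 0.1. The log2 difference between the libraries of a group had an SD of 0.63 (untreated) to 0.69 (DFO at 6 h). Whether replicate numbers pair the samples in genes at the levels of the set was not tested. With the replicate block the calls at 24 h were 4 with DFO and 16 with T003 against untreated cells, and 7 with DFO and 14 with T003 against 6 h. Of the calls against untreated cells, the block ended those of PAICS with T003 (adjusted p = 0.0558) and MCM5 with DFO (0.0526). Each group had 2 libraries of at least 107117892 counts, untreated cells were not sampled at 24 h, and the effect of depth was not tested.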
